A study of Solanum lycopersicum and Solanum pimpinellifolium with 30 samples.

Results

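Ripe fruit pericarp of the wild tomato accession LA1589 was compared with that of 9 Andean landraces, over all genes on the array. The comparison took the 3 arrays labelled LA1589, of 30 in the study, and set them against the equally weighted mean of the 9 landraces, which have 3 arrays each. It was followed across 10038 probe sets, all those on the array that are not controls. LA1589 is labelled Solanum pimpinellifolium, and the landraces 3806, 3815, 3836, 3842, 549, 557, 560, 571 and 572 are labelled Solanum lycopersicum. All 10 were grown together in a field trial at La Consulta, Mendoza, Argentina, with 18 plants per accession in 3 plots of 6. Fruit was picked red and firm, and the skin, the locule tissue and the seeds were removed before freezing. Trizol was used for the RNA, and cRNA carrying biotin was hybridised to one-colour Affymetrix tomato arrays. No treatment, transgene or mutation is given for any group. The wild species is represented by 1 accession, so a difference of LA1589 is not a measurement of the species. The labels call the 3 arrays of a cultivar biological replicates, without saying which plants or plots each came from.

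Solanum pimpinellifolium is a red-fruited, small-fruited relative of the cultivated tomato and crosses with it readily. When a tomato ripens, ethylene and a group of MADS-box transcription factors switch on genes that soften the cell wall, build up carotenoids and shift sugars, acids and aroma compounds. The wall is loosened by several enzymes at once, among them pectin methylesterases, which remove methyl groups from pectin, polygalacturonases, mannanases and galactosidases. A change in such transcripts in whole pericarp can come from fewer cells of a type or from less RNA per cell, and these cannot be told apart here.

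The values below are log2 signals after quantile normalisation, so that a difference of 1 is a 2-fold change, and they compare the same probe set across arrays. Background on each array was taken as the percentile 95 of its 63 probe sets for foreign reporter sequences, and it ran from 0.65 to 1.32 on the LA1589 arrays and from 0.37 to 2.41 on the 27 landrace arrays. Between 52.3% and 65.2% of probe sets were above it on the LA1589 arrays, against 40.2% to 78.3% on the landrace arrays. The 3 LA1589 arrays correlated with each other at 0.958 to 0.967 and each was nearest to another LA1589 array. Transcripts of ripe fruit were bright in LA1589, with means of 8.77 for PG2, 8.36 for Psy1 and 10.46 for ADH2. Most markers of the removed tissues were at background. TAS14 and MAN2 (seed), LE16 and TSW12 (epidermis) and TPRP-F1 (ovary tissue and locule) were at background in at least 2 of the 3 LA1589 arrays and in 8 or 9 of the 9 landraces. AGL11, a MADS-box gene of ovules, was at background in 1 LA1589 array and in 7 landraces. LE16 reached 3.99 on 1 landrace array. LEA14 of the seed list was bright, at 6.32 in LA1589 and 7.07 as the landrace mean, and is described with GluB below. The adjusted p for a difference of the 6 markers other than LEA14 and GluB ran from 0.0516 to 0.817 (limma).

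Of the 10038 probe sets, 1560 passed the test of LA1589 against the landrace mean (limma, adjusted p under 0.05, 15.5%). The 861 higher in LA1589 made up 8.58% of all probe sets and the 699 lower 6.96%. At an unadjusted p under 0.05 there were 2790. A change of at least 2-fold was seen in 317 of the higher and 322 of the lower probe sets. Passing this test does not place LA1589 outside the landraces, which differ among themselves. In 1158 of the 1560 (74.2%) the LA1589 mean lay beyond the highest or the lowest landrace mean, 649 above and 509 below. In the other 402 (25.8%) at least 1 landrace was as far out as LA1589, 212 among the higher and 190 among the lower. Leaving out replicate 1 of LA1589 lowered the number passing to 888 (521 higher, 367 lower), with 769 beyond the landrace means and 119 within them. The number within them was 261 without replicate 2, 171 without replicate 3 and 248 without landrace 560. With each array centred on its median in place of quantile normalisation, the median of all differences moved by 0.11, and 1135 probe sets were higher against 585 lower. When 1 mean per cultivar was used, so that the spread between the 9 landraces was the error, 111 passed.

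**Figure D1:**
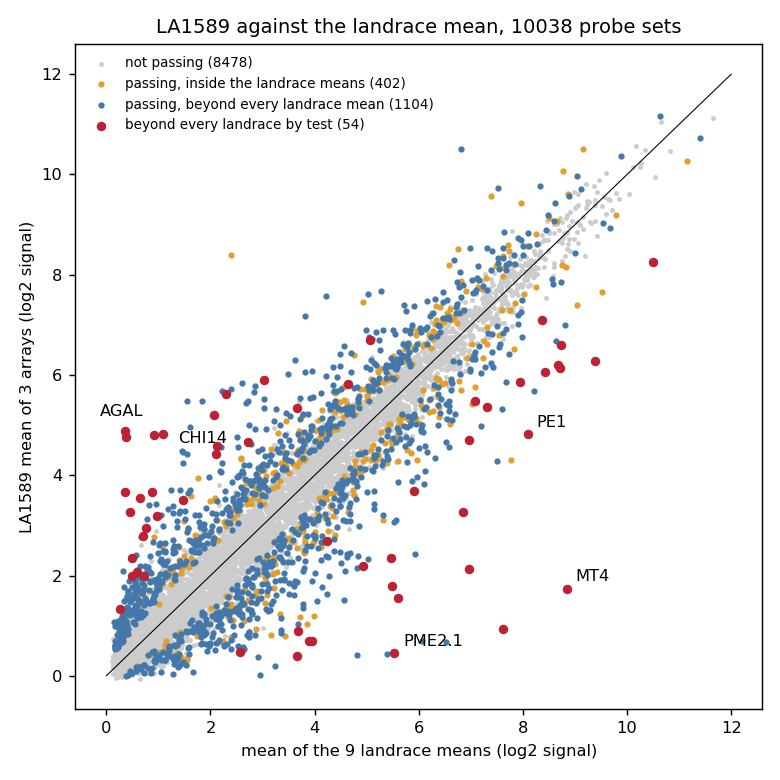
Each point is a probe set, placed by its mean over the 9 landrace means (horizontal, log2 signal) and its mean over the 3 LA1589 arrays (vertical, log2 signal), with the line of equal values. The 54 probe sets in red were beyond every single landrace by test, and MT4, PME2.1 and PE1 lie far below the line while AGAL and CHI14 lie far above it.

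In most probe sets inside the landrace range, 1 landrace and not several reached LA1589. Several landraces at that level would draw the landrace mean towards LA1589. The test itself therefore favours this pattern, and the counts are a description. Exactly 1 landrace went as far as LA1589 or farther in 185 of the 212 higher probe sets (87.3%) and in 162 of the 190 lower ones (85.3%). Landrace 560 did so in 86 of the higher set (40.6%), followed by 557 in 56 and 572 in 53. In the lower set it was 572 in 61 (32.1%), 560 in 59 and 557 in 40, with 3815 in 36. Landrace 3842 did so in 0 of the higher set and 4 of the lower, and 571 in 1 of each. On average 48.5% of probe sets were above background in 557, 58.2% in 572, 62.9% in 560 and 59.1% in LA1589. Landrace 3836, with 60.0%, went as far as LA1589 in 12 of the higher set and 7 of the lower. How far such traits of the arrays bear on these matches was not tested. The landrace means themselves differed in 39.1% of all probe sets (moderated F test on the 27 landrace arrays), in 52.8% of those beyond the landrace means and in 98.8% of those within them. A wide landrace range is part of what defines the last group, so this share is a description.

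A stricter test asked whether LA1589 differed from each of the 9 landraces in turn and in the same direction, with the largest of the 9 p-values taken as the p of the probe set. It was passed by 54 probe sets (0.538%), of which 26 were higher (0.259%) and 28 lower (0.279%). A total of 282 passed at an unadjusted p under 0.05. The distance from the LA1589 mean to the nearest landrace mean, called the gap here, ran from 0.88 to 4.35 in the higher probe sets (median 1.74) and from 0.94 to 6.20 in the lower ones (median 2.05). Among the higher, 4 had all 9 landraces at background and 8 had none there. Among the lower, LA1589 was at background in 6, while no landrace was at background in any of the 28. Without landrace 572 the count rose to 90. For the higher probe sets alone it was 48 without landrace 572, 17 without replicate 1 of LA1589 and 41 without replicate 2. As a simpler description with no test, all 3 LA1589 arrays lay above all 27 landrace arrays in 119 probe sets (1.19%) and below them in 85 (0.847%), together 204 (2.03%).

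The same tests run for every cultivar against the other 9 set these counts in proportion. They share arrays and are a description. LA1589 had fewer probe sets past the test against the mean of the others than landraces 557 (2188) and 560 (2147), and more than 572 (1255). The other 6 landraces had between 22 (3842) and 736 (3815). For the test against every other cultivar the order was different. LA1589 had 54 probe sets there, landrace 560 had 12, 557 had 8, 572 had 6, 3815 had 5 and the remaining 5 landraces had 0. Clear of every other array lay 413 probe sets in 560, 204 in LA1589, 139 in 557 and 121 in 572.

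**Figure D2:**
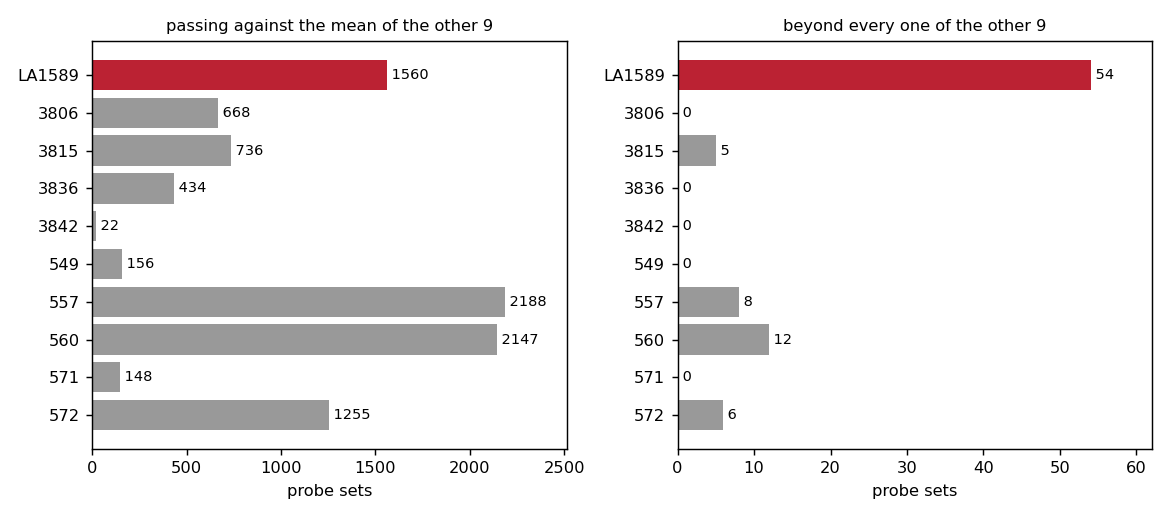
Bars give the number of probe sets, of 10038, that passed the test of 1 cultivar against the mean of the other 9 (left) and against every one of the other 9 (right), with LA1589 in red. LA1589 has the third longest bar on the left (1560) and the longest on the right (54).

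Of the 54 probe sets beyond every landrace, 5 belong to genes with a described symbol: AGAL and CHI14 on the higher side, PE1, PME2.1 and 1 probe set of MT4 on the lower. AGAL, an alpha-galactosidase gene, gave 4.38, 4.84 and 5.46 on the LA1589 arrays, and the 27 landrace arrays ran from -0.0091 through a median of 0.30 to 1.18. No array of any landrace came near the lowest LA1589 array, and all 9 landraces were at background. The difference of AGAL was 4.54 ± 0.19 on the log2 scale (standard error, 3 LA1589 arrays against 27; limma, adjusted p = 1.6e-14), which is at least 17.2-fold with the landrace arrays raised to background, and its adjusted p against every landrace was 4.64e-11. The chitinase gene CHI14, whose product breaks down chitin of fungal cell walls, gave 5.34, 3.41 and 5.63 in LA1589 against 0.24, 0.81 and 2.61 as the lowest, median and highest landrace arrays. The second LA1589 array was the low one and still lay above every landrace array. CHI14 was higher by 3.87 ± 0.33 (adjusted p = 6.7e-09), at least 13.04-fold, with an adjusted p of 0.000157 against every landrace. Without that array the difference was 4.57.

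PE1 and PME2.1 are pectin methylesterase genes, and they are direct neighbours in the gene table of SLM_r2.1, the reference assembly used for names, with 0 genes between them. PE1 gave 5.43, 4.84 and 4.20 in LA1589, and the landrace arrays ran from 6.86 through 8.18 to 9.46. The 2 groups of arrays did not overlap, and PE1 was well above background in both. It fell by 3.27 ± 0.27 (adjusted p = 3.5e-09), a 9.62-fold difference, and its adjusted p against every landrace was 0.000192. PME2.1 gave 0.47, 0.29 and 0.59 in LA1589, all at background, against landrace arrays from 1.93 through 5.60 to 7.53. In the landraces its mean ran from 2.96 in 3815 to 7.30 in 3842. PME2.1 was at least 23.9-fold lower (log2 difference -5.08 ± 0.37, adjusted p = 6.56e-10), with an adjusted p of 0.0111 against every landrace. That last p was 0.0534 without replicate 1 of LA1589 and 0.111 without replicate 1 of landrace 3815, the landrace nearest to LA1589 for this gene. With 1 mean per cultivar, PME2.1 did not pass against the landrace mean (limma, adjusted p = 0.119), while PE1 did (0.0155).

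MT4, a gene for a metallothionein, a small cysteine-rich protein that binds metals, had the lowest value relative to the landraces among all described probe sets. One of its 4 probe sets gave 2.35, 1.05 and 1.81 in LA1589 against landrace arrays from 7.32 through 8.99 to 10.16. The groups were far apart, with a log2 difference of -7.10 ± 0.24 (adjusted p = 1.72e-16; 3.34e-12 against every landrace). The other 3 probe sets of MT4 differed by -0.60, -0.39 and -0.32 (adjusted p = 0.213, 0.347 and 0.396). The brightest of these reached 7.98 ± 0.27 (SD, n = 3) in LA1589, inside the landrace means of 7.53 to 9.71. The 4 probe sets of MT4 therefore gave unlike values in LA1589, and a low level of the transcript as a whole was not measured.

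Other genes with several probe sets were read in the same way. The array holds 83 named genes with more than 1 probe set, placeholder symbols included, with 190 probe sets in all. Of these 190, 22 were higher in LA1589 and 5 lower, where all probe sets had 8.58% higher and 6.96% lower. In 11 of the 22 another probe set of the same gene was also higher by test. Of the 5 that were lower (MT4, IAA3, CYP85A1, Klc-I2I and TH1), 0 had another probe set that passed, and 4 had another with a difference of the same sign. The other probe set of CYP85A1 fell by 1.30 (adjusted p = 0.0647). That of TH1 was dim, at 0.17 in LA1589 and 0.30 in the landraces. PE1, PME2.1, AGAL and CHI14 have 1 probe set each. The array's probes derive mainly from cultivated tomato, and the match of the probes to LA1589 sequence was not tested, since no probe sequences were used here.

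The other 49 probe sets beyond every landrace carry no gene name in the annotation used, 24 on the higher side and 25 on the lower. Those with the largest gaps were as separate from the landraces as the named genes. The lower probe set with the largest gap gave 2.04, 0.45 and 0.31 in LA1589 against landrace arrays from 4.26 through 7.87 to 9.38, and it was at least 85.8-fold lower. The next gave 1.18, 1.56 and 1.92 against 4.88, 5.62 and 6.52, and was lower by 4.04 ± 0.22 on the log2 scale. On the higher side, the probe set with the largest gap gave 5.58, 2.48 and 6.21 against landrace arrays of 0.12 to 0.85 with a median of 0.31, at least 15.8-fold higher. Its log2 difference of 4.39 was 5.53 without replicate 2 of LA1589 and 3.66 without replicate 3. The next on that side gave 3.51, 3.08 and 4.42 against 0.067, 0.37 and 0.72, at least 7.55-fold higher. All 9 landraces were at background for both higher probe sets.

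Further described genes had all 3 LA1589 arrays clear of all 27 landrace arrays without passing the test against every landrace. RDRP, an RNA-dependent RNA polymerase gene of RNA silencing, gave 4.73, 5.34 and 4.70 in LA1589 and from 1.75 through 3.13 to 4.13 in the landraces. PCNA, the sliding clamp of DNA replication, gave 4.996, 4.74 and 5.29 against 1.29, 2.70 and 4.14. EIN2, a central component of ethylene signalling, gave 4.70, 5.06 and 5.48 against 1.96, 3.38 and 4.17. All 3 genes were thus moderately expressed in the landraces and higher on every LA1589 array, by 1.86 ± 0.39, 2.26 ± 0.29 and 1.85 ± 0.32 (adjusted p = 0.00172, 5.76e-06 and 0.000227). NP24-I, an osmotin-like defence protein gene, was among the brightest probe sets in LA1589 with 10.48, 10.20 and 10.85. Its landrace arrays were spread from 2.33 through 7.04 to 10.16, so the highest lay just under the lowest LA1589 array. NP24-I was higher by 3.71 ± 0.52 (adjusted p = 1.59e-05), and landrace 571 came nearest with a mean of 9.38.

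CTR1, a kinase that represses ethylene signalling, was higher by 1.13 ± 0.24 (adjusted p = 0.00215), with 3.17, 3.08 and 3.43 against landrace arrays of 1.13 to 3.08. The lowest LA1589 array and the highest landrace array were almost equal. HRBP1 was higher by 1.39 ± 0.21. KN4, a knotted-like homeobox gene, and SUT4, a sucrose transporter gene, lay at background in 4 and 3 of the landraces and were at least 1.80-fold and 1.95-fold higher. The other probe set of SUT4 differed by -0.14 (adjusted p = 0.534), with means of 0.40 in LA1589 and 0.55 in the landraces. That LA1589 mean is under the background of each LA1589 array, so this probe set cannot decide on the difference. On the lower side, the metacaspase gene MCA1 gave 5.27, 5.24 and 4.85 against landrace arrays from 5.37 through 6.67 to 7.15, a drop of 1.43 ± 0.15 (adjusted p = 4.27e-07). ACT gave 8.41, 8.42 and 8.50 against 8.55, 9.01 and 9.56, lower by 0.56 ± 0.14. The probe set chMDH was at background on all 3 LA1589 arrays and at least 1.34-fold lower, and it did not pass without replicate 1 or without replicate 2 of LA1589.

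**Figure D3:**
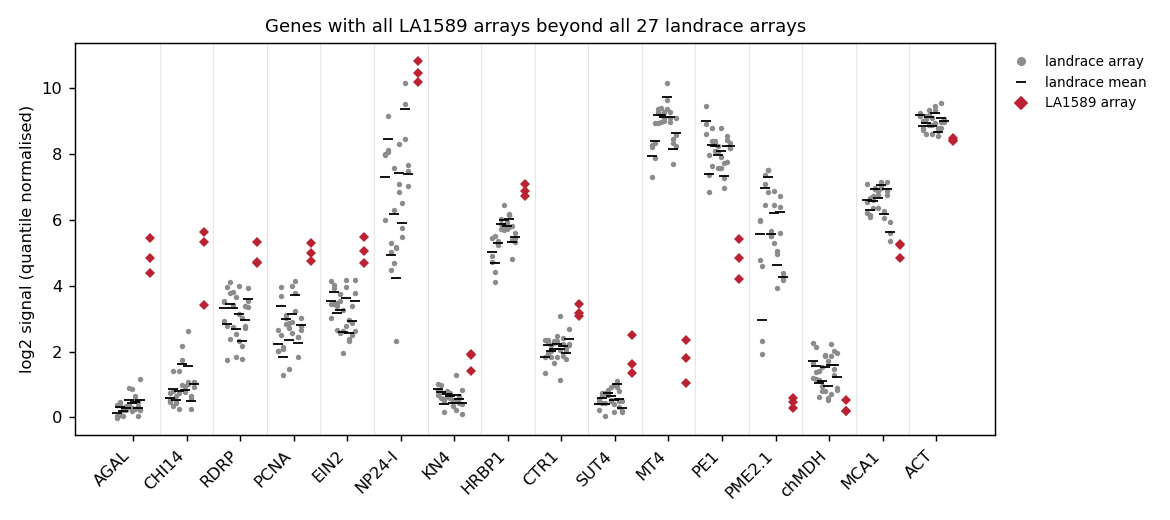
Log2 signal of 16 described genes, chosen by the size of the gap, whose 3 LA1589 arrays (red diamonds) lie beyond all 27 landrace arrays (grey points, 1 column per landrace in the order 3806, 3815, 3836, 3842, 549, 557, 560, 571, 572, with a dash at each landrace mean). The gap is widest for MT4, AGAL, CHI14, PE1 and PME2.1. The nearest LA1589 and landrace arrays lie close together for NP24-I, CTR1, MCA1, chMDH and ACT.

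Genes inside the landrace range passed the test against the landrace mean with most landraces on 1 side of LA1589 and 1 or a few beyond it. The small heat shock protein gene vis1, known for its effect on the viscosity of tomato juice, gave 4.32, 4.15 and 4.46 in LA1589. Landrace 572 had a mean of 4.11, and the means of the other 8 ran from 6.97 in 560 to 9.10 in 549. LA1589 and 572 thus shared a low level, and vis1 was lower than the landrace mean by 3.46 ± 0.45 (adjusted p = 5.93e-06). Man4, an endo-beta-mannanase gene of fruit softening, gave 1.45, 1.19 and 0.48 in LA1589. Landrace 3815 was lower with a mean of 0.53, 3836 was close with 1.31, and landrace 560 was highest with 6.53. Man4 was lower by 2.81 ± 0.71 (adjusted p = 0.00813) and did not pass without replicate 3 of LA1589 or with the spiked controls as a covariate (-1.94, adjusted p = 0.0937).

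ACS2, the main ACC synthase gene of ripening ethylene, gave 8.08, 6.28 and 7.99 in LA1589. Landrace 557 had a mean of 7.60 and 560 a mean of 6.87, while 3806 was lowest with 2.70. ACS2 was higher by 2.53 ± 0.62 (adjusted p = 0.00659), by 3.11 without replicate 2 of LA1589 and by 3.19 without landraces 557 and 560, and it did not pass without replicate 1 or without replicate 3. The gene hqt, for the quinate transferase that leads to chlorogenic acid, gave 8.51, 8.16 and 7.92 in LA1589. Landrace 557 reached 8.38 and the other 8 ran from 5.05 to 7.21, so hqt was higher by 1.61 ± 0.32 (adjusted p = 0.0011). For the chitinase gene CHI17 it was 3815 that lay beyond LA1589, with a mean of 4.81 against 4.58 ± 0.52. CHI17 differed by 2.44 ± 0.73 and did not pass without replicate 1 or replicate 3 of LA1589 or without landrace 3806.

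Landrace 557 was also beyond LA1589 for Cel2, an endo-beta-1,4-glucanase gene, with 8.83 against 8.52 ± 0.33. The difference of Cel2 from the landrace mean, 1.77 ± 0.59 (adjusted p = 0.0451), did not pass without any 1 of the 3 LA1589 arrays, of 14 of the landrace arrays, or of landraces 3806, 3836 and 571. CIF1 was lower by 1.27 ± 0.23 (adjusted p = 0.000358), with 3815 at 4.38 and LA1589 at 4.50 ± 0.37. For Eix1, a receptor-like protein gene of xylanase perception, LA1589 had 1.45 ± 0.77 and 3815 had 1.10, and the difference was -1.61 ± 0.53 (adjusted p = 0.0392). BR1 (1.53 ± 0.42; at least 2.31-fold, with 3 landraces at background) and SIP (-1.24 ± 0.42) varied widely between the LA1589 arrays, from 1.49 to 3.59 and from 0.12 to 3.30. Without replicate 1 of LA1589, BR1, Eix1 and SIP did not pass, and SIP differed by -0.49, but by -2.08 without replicate 2 (adjusted p = 0.00107). Nor did BR1 pass without replicate 2, and Eix1 and SIP without replicate 3. Eix1 did not pass without 1 of 4 landraces (3806, 3836, 3842 or 571), and SIP without 1 of 6 landraces or 16 landrace arrays.

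**Figure D4:**
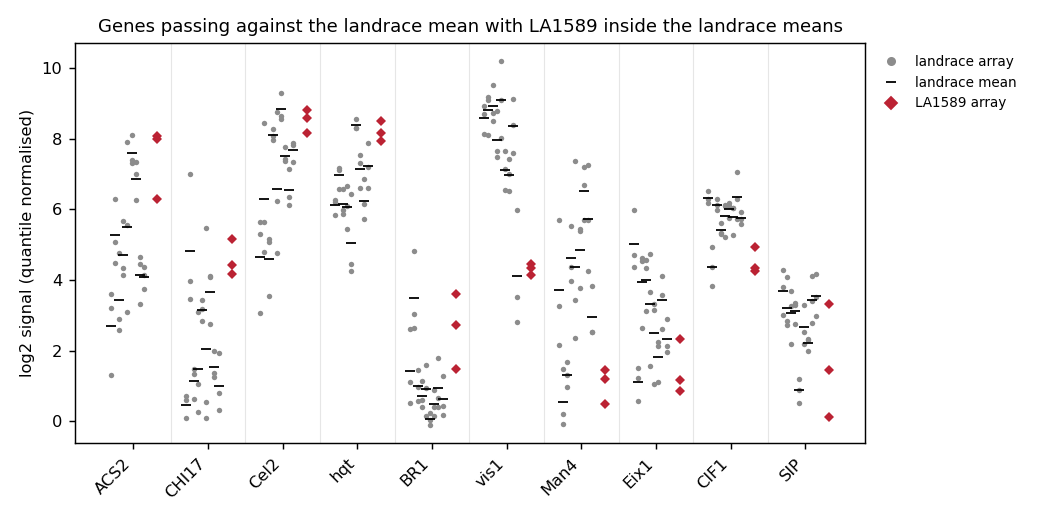
Log2 signal of the 5 higher and 5 lower described genes with the largest differences that passed against the landrace mean with the LA1589 mean inside the landrace means. Red diamonds are LA1589 arrays, grey points landrace arrays in columns ordered as 3806, 3815, 3836, 3842, 549, 557, 560, 571, 572, and dashes landrace means. For vis1 the column of 572, the last, lies at the level of LA1589.

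Ethylene and ripening regulation was covered by 59 genes, of which 11 were higher in LA1589, 4 lower and 44 short of the threshold, beside 8.58% higher and 6.96% lower among all probe sets. The median difference of the list was 0.030 against -0.00057 for all probe sets, and its median absolute difference 0.44 against 0.23. The list holds the brightest probe set of each gene, whereas 3348 of all probe sets were at background on both sides. They are thus unlike in level, and the figures are a description. The members that rose include steps of ethylene synthesis and signalling. Beside ACS2, EIN2 and CTR1 these were ACO6, an ACC oxidase gene (1.53 ± 0.41), and EIL1, EIL3 and EIL4, which encode EIN3-like transcription factors (1.004 ± 0.18, 0.79 ± 0.18 and 0.99 ± 0.24). EIL2 of the same family fell by 1.04 ± 0.33. The other probe sets of ACO6 differed by 0.58 and -0.11 (adjusted p = 0.221 and 0.839) and were dim, with means of 1.08 and 0.95 in LA1589. The MADS-box ripening regulator RIN rose by 0.71 ± 0.18 and the MADS-box gene AG1 by 1.68 ± 0.30, while TDR4, a further MADS-box gene of ripening, fell by 0.90 ± 0.18.

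Genes that respond to ethylene in ripening fruit did not move together. ER1, an ethylene-responsive proteinase inhibitor gene, gave 8.56, 6.25 and 7.94 in LA1589 against landrace arrays from 1.24 through 4.03 to 8.17, which overlap. It was higher by 3.36 ± 0.66 (adjusted p = 0.000897), and by 4.02 without replicate 2 of LA1589. E8, a classic ethylene-induced gene of ripening, gave 6.29, 5.72 and 5.04 against 4.75, 8.36 and 9.50. The LA1589 mean of E8 lay below every landrace mean, the nearest being 6.32 in 3815, and E8 was lower by 2.53 ± 0.44 (adjusted p = 0.000231). JERF1, the brightest member that did not pass, had 9.45 ± 0.21 in LA1589 and a landrace mean of 9.26.

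The carotenoid and plastid isoprenoid list held 18 genes, 1 higher, 3 lower and 14 short of the threshold, with a median difference of -0.21. All probe sets had 8.58% higher and 6.96% lower. The lower genes were DXS, the first step of the plastid isoprenoid pathway (-1.53 ± 0.42), ZEP, zeaxanthin epoxidase (-1.41 ± 0.32), and NCED1, which makes the precursor of abscisic acid (-2.05 ± 0.35). For these 3 genes LA1589 lay below every landrace mean. NCED1 was at background on all 3 LA1589 arrays and at least 3.20-fold lower. DXS did not pass without replicate 1 or without replicate 3 of LA1589, and with the mean of the spiked controls on each array as a covariate it differed by -0.94 (adjusted p = 0.154). CCD1A, a carotenoid cleavage dioxygenase gene, was at background in 3 landraces and at least 2.02-fold higher (1.19 ± 0.24). Psy1, the phytoene synthase gene of fruit, gave 8.49, 8.50 and 8.10 against a landrace median of 9.32, and its difference of -0.44 ± 0.25 had an adjusted p of 0.265. Landrace 560 had the lowest mean, 5.36, and 3842 the highest, 9.66, and LA1589 stood inside them. The landrace mean of 8.80 contains 560, and all 3 LA1589 arrays lay below the landrace median. The other probe sets of Psy1 differed by 0.26 and 0.096 (adjusted p = 0.453 and 0.658). They were dimmer, with means of 2.94 and 0.36 in LA1589.

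The hormone list other than ethylene, which shares NCED1, had 0 of 17 genes higher and 3 lower, with a median difference of -0.25, against 8.58% and 6.96% of all probe sets. With the probe sets of a gene averaged, 1 gene was lower. LA1589 was at background for 11 of the 17. IAA3, an auxin response repressor gene, fell by 0.86 ± 0.24 and CYP85A1, of brassinosteroid synthesis, by 0.96 ± 0.33 (adjusted p = 0.0153 and 0.0492). The other probe set of IAA3 differed by 0.22 (adjusted p = 0.592). Neither gene passed without replicate 1 or without replicate 3 of LA1589 or with the mean of the spiked controls as a covariate (-0.78 and -0.70), and CYP85A1 also missed the threshold without 18 of the 27 landrace arrays and 5 of the landraces. The gibberellin oxidase gene 20ox-3 gave 0.31, 5.24 and 2.20 in LA1589, a wider spread than the 1.41 to 4.97 of the landrace arrays, and did not pass (-1.18 ± 0.50, adjusted p = 0.12). Single arrays decided that value, which was -0.042 without replicate 1 of LA1589 (adjusted p = 0.976) and -2.51 without replicate 2, where it passed (adjusted p = 3.81e-05).

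The cell wall list held 47 genes, 3 higher, 5 lower and 39 short of the threshold, near the 8.58% and 6.96% of all probe sets, and LA1589 was at background for 28 of them. The median difference of the list was 0.0038. AGAL and Cel2 were among the higher members, and PE1, PME2.1 and Man4 among the lower. The other higher member, XET4, was at background on all 3 LA1589 arrays and in all 9 landraces, so its test gives no usable direction. Also lower were tXET-B2, a xyloglucan endotransglycosylase gene (-2.20 ± 0.69, adjusted p = 0.0297; at least 4.27-fold), and the xylosidase gene XYL1 (-1.19 ± 0.30, adjusted p = 0.00837). For tXET-B2 the landrace means ran from 1.44 in 557 to 6.74 in 3806, and it did not pass without any 1 of the LA1589 arrays or without landrace 3806. XYL1 did not pass without replicate 1 or replicate 3 of LA1589. The polygalacturonase gene PG2, the main pectin-degrading enzyme of ripening, gave 9.27, 8.84 and 8.20 in LA1589 against landrace arrays from 7.43 through 9.77 to 10.77. Its difference of -0.65 ± 0.47 did not pass (adjusted p = 0.408).

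In sugar and starch metabolism 2 of 22 genes were higher and 2 lower, close to the shares over all probe sets (8.58% and 6.96%), with a median difference of 0.14. SUT4 is described above. AI, the vacuolar acid invertase gene, gave 9.95, 11.64 and 9.95 in LA1589 against landrace arrays from 7.66 through 8.86 to 11.35. Its LA1589 mean of 10.51 lay under the 11.21 of landrace 3806, and the difference was 1.36 ± 0.44 (adjusted p = 0.0371). Sucrose synthase sus3 fell by 0.79 ± 0.27 (adjusted p = 0.0488) and AGP-S2, an ADP-glucose pyrophosphorylase subunit gene, by 0.59 ± 0.16. AI and sus3 did not pass without replicate 1 or without replicate 2 of LA1589. They also missed the threshold without any 1 of 4 landraces each, and sus3 without 17 of the landrace arrays and with a replicate block (adjusted p = 0.0505).

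Among 11 genes of organic acids, GABA and nitrogen, the malate dehydrogenase gene mdh was lower and 10 did not pass. It gave 3.03, 1.25 and 2.47 in LA1589 against landrace arrays from 1.96 through 4.87 to 6.90, a difference of -2.25 ± 0.54 (adjusted p = 0.0049) that did not pass without replicate 2 of LA1589. With the spiked controls as a covariate mdh differed by -1.58 (adjusted p = 0.0641). In the phenylpropanoid list 2 of 12 genes were higher, hqt and THM16. THM16, a MYB gene, was at background in all 9 landraces and on 2 of the 3 LA1589 arrays, and its difference of 0.72 ± 0.23 was 0.12 without replicate 1 and 0.48 with the spiked controls as a covariate, where it did not pass. In the aroma and fatty acid list 3 of 15 were higher and 0 lower (8.58% and 6.96% over all probe sets). AAT gave 9.74, 10.10 and 9.46, above every landrace mean, but its landrace mean contains 572 at 0.74 beside 8 others at 9.09 to 9.44. The difference of 1.44 ± 0.16 was 0.49 without landrace 572 (adjusted p = 0.0406). The fatty acid desaturase gene Fad7 gave 4.996, 1.503 and 4.14 and differed by 1.46 ± 0.45, or by 0.73 without replicate 1 and 2.48 without replicate 2. It did not pass without replicate 1 or 3 of LA1589, without any 1 of 5 landraces or with the spiked controls as a covariate (1.33).

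Defence and wound genes had 9 of 34 members higher, 2 lower and 23 not passing. That compares with 8.58% of all probe sets higher and 6.96% lower, and the median difference of the list was 0.051. LA1589 was at background for 14 of the 34. Beside CHI14, CHI17, NP24-I and RDRP, the higher members included CHI9, a further chitinase gene, and GluB, a basic beta-1,3-glucanase gene. CHI9 gave 6.37, 4.84 and 5.95 in LA1589 against landrace arrays from 0.18 through 1.69 to 6.60, and was at least 9.49-fold higher (log2 difference 3.33 ± 0.85, adjusted p = 0.00872). Landraces 571 and 572 had the highest means for CHI9, 4.60 and 4.16, and it did not pass without replicate 1 of LA1589 or with the spiked controls as a covariate (2.25, adjusted p = 0.103). GluB gave 4.24, 1.11 and 4.26, so 1 of the LA1589 arrays lay within the landrace arrays (0.089 to 3.72). It was at least 3.98-fold higher (2.15 ± 0.59, adjusted p = 0.0141), by 3.20 without replicate 2, and did not pass without replicate 1 or 3 or with the spiked controls as a covariate (1.42). P69A, counted among the higher members, was at background in all landraces and on 2 LA1589 arrays. WRKYIId-1, a WRKY transcription factor gene, fell by 1.89 ± 0.42 and TPx1, a peroxidase gene, by 0.48 ± 0.13.

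Among 17 disease resistance and kinase genes 1 was higher and 1 lower, near the 8.58% and 6.96% of all probe sets, both of them MAP kinase kinases. MKK2 gave 3.76, 2.97 and 3.87 against landrace arrays from 3.54 through 4.82 to 5.64, and was lower by 1.26 ± 0.23 (adjusted p = 0.000448). MEK1 gave 1.70, 3.37 and 3.07 against 0.98, 1.79 and 2.84, was higher by 0.95 ± 0.27 (adjusted p = 0.017), and did not pass without replicate 2 or without replicate 3. In the antioxidant list 4 of 17 genes were higher and 1 lower, against 8.58% and 6.96% of all probe sets, and 3 were higher with the probe sets of a gene averaged. The 2 catalase genes of the list that passed moved in opposite directions. CAT2 gave 5.93, 5.91 and 6.12 against 2.31, 4.37 and 6.42 and was higher by 1.77 ± 0.30 (adjusted p = 0.000168). The gene cat1 gave 7.65, 6.45 and 6.89 against 7.45, 8.95 and 9.88 and was lower by 1.82 ± 0.35 (adjusted p = 0.000666). The other higher members were FESOD, an iron superoxide dismutase gene, and the ascorbate recycling genes DHAR2 and MDHAR, by 0.47 to 0.78. MDHAR was at background in 6 landraces. A second probe set of FESOD differed by -0.74 (adjusted p = 0.0898).

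Cell cycle and DNA replication genes had 4 of 16 members higher and 0 lower, with a median difference of 0.033, where all probe sets had 8.58% higher and 6.96% lower. PCNA, the linker histone gene H1 and krp2, a cyclin-dependent kinase inhibitor gene, were beyond every landrace mean. H1 gave 8.07, 8.25 and 7.87 against landrace arrays from 5.01 through 6.89 to 8.05 and was higher by 1.26 ± 0.29 (adjusted p = 0.00317). The other probe set of H1 differed by 0.78 (adjusted p = 0.0555). The gene krp2, at background in 3 landraces, was at least 1.75-fold higher. CycA1, the fourth, was at background in all 9 landraces and on 2 of the LA1589 arrays. In the sterol and terpene list, FPPS1, a farnesyl diphosphate synthase gene, gave 7.03, 6.70 and 6.41 against 3.89, 5.02 and 6.84 and was higher by 1.62 ± 0.30 (adjusted p = 0.000414), and the other 3 genes did not pass.

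Of all probe sets 8.58% were higher and 6.96% lower, and several lists had few or no members past the test. All 8 photosynthesis genes missed it, with a median difference of -0.80, and so did the brightest probe set of each of the 23 genes of transport and metal binding, with a median of -0.033. MT4 is one of the latter, and with the probe sets of a gene averaged 1 gene of that list was lower. Photosystem gene PSBR, the brightest of the first, had 8.75 ± 0.41 in LA1589 and a landrace mean of 8.78. Of 8 heat shock genes 7 did not pass and vis1 was lower, and the median of that list was -0.38. Of 4 seed genes GluB was higher and LEA14, a late embryogenesis abundant protein gene, lower by 0.75 ± 0.23 (adjusted p = 0.0303). LEA14 missed the threshold without any 1 of the LA1589 arrays and without landrace 3806. None of the 3 epidermis genes and the 2 locule and vascular genes passed (adjusted p of LE16 0.621 and of TPRP-F1 0.704).

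**Figure D5:**
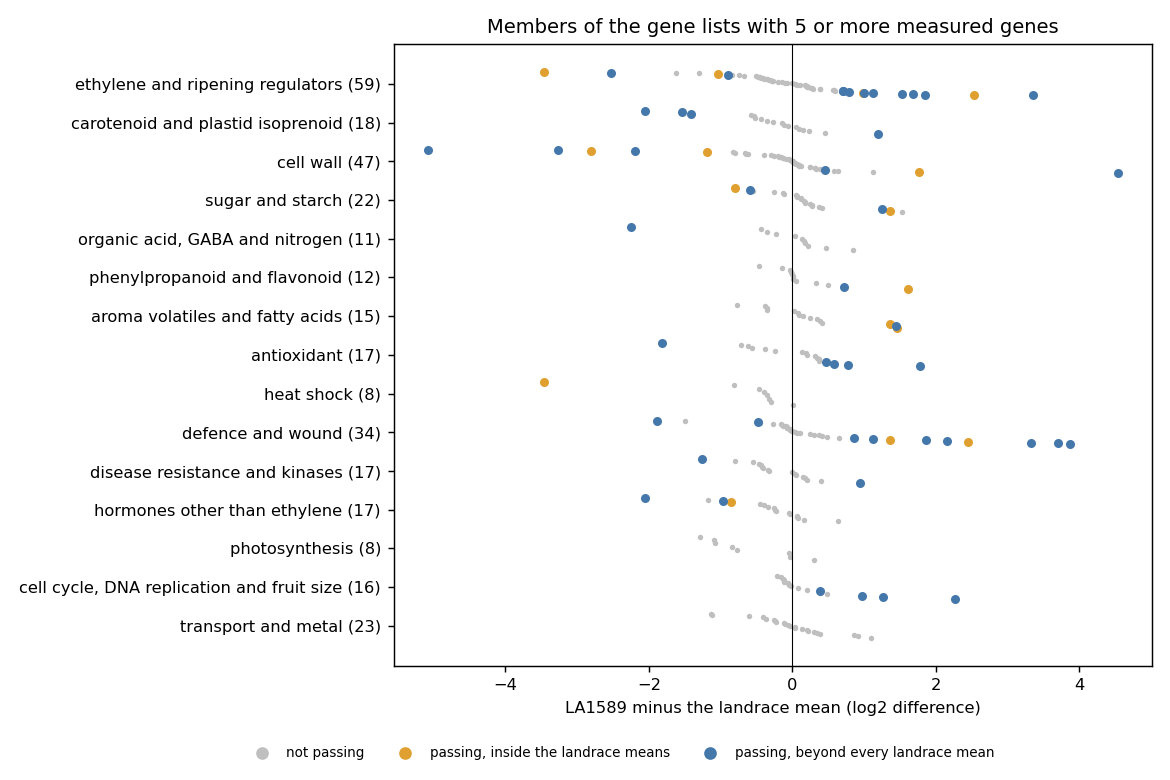
Log2 difference of LA1589 from the landrace mean for each measured gene (point) of the 15 lists with at least 5 genes, with the number of genes in brackets. Blue points passed with LA1589 beyond every landrace mean, orange points passed with LA1589 inside them and grey points did not pass. Passing genes lie on both sides of 0 in the ripening, cell wall, sugar, antioxidant and defence lists, and on the higher side in the cell cycle list.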

How the data were processed

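The authors deposited log2 signals of 10209 probe sets on 30 arrays (10 cultivars, 3 each); how they were summarised and normalised, and with what software, is not given in the sources used here. No source states the log base, which was taken as 2, since the values span 12.97 units (-0.42 to 12.55), more than the 11.09 natural-log units of a 16-bit scanner. A natural log would make every fold larger. All values were quantile normalised between arrays, and 108 Affymetrix and 63 reporter controls were then left out. The tests used limma 3.58.1 in R 4.3.3 on all 30 arrays with 1 mean per cultivar (20 residual degrees of freedom), two-sided, with Benjamini-Hochberg adjustment over 10038 probe sets at 0.05. Tables and figures used Python 3.11.15 with pandas 2.3.3 and matplotlib 3.10.9, and the fits were tested on simulated data. Precision is limited by the number of arrays, and p-values measure the spread between these arrays.

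A fold is given as "at least" where 2 or more landraces (for a higher gene) or 2 or more LA1589 arrays (for a lower one) were at background, with those arrays raised to it. Platform annotation named 909 probe sets with 802 symbols, of which 885 matched the reference gene table (assembly SLM_r2.1) and 24 did not; 9129 have no name, and 702 probe sets of 626 genes have a symbol that is not a placeholder. LE25 and CER6, planned as markers, were not among them. The brightest probe set stood for a gene in 19 lists matched on symbols and synonyms, from which 42 matches were removed on their names. The members, lists and tests were chosen with earlier results of these data known.

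Named genes were, of the described genes with all LA1589 arrays clear of all landrace arrays, the 10 higher and 10 lower with the largest gap (6 lower existed); of those inside the landrace means, the 5 largest differences each way; up to 2 further passing members per list and its brightest member that did not pass; and the 2 unnamed probe sets with the largest gap each way. List members beyond these, Klc-I2I and TH1 were named after their values were seen. Replicate numbers were not used to pair samples in the main fit. Deviations of same-numbered arrays correlated at a median of -0.0060 over 135 pairs of arrays from different cultivars, with 22 over 0.1. With 3 arrays per cultivar this does not settle whether the numbers stand for plots. Alternatives were the values as deposited, median centring, filters on dim, background and cross-hybridising probe sets, a variance trend, array weights, a replicate block, leaving out arrays or landraces, 2 other error terms, and averaging the probe sets of a gene. The spiked controls as a covariate and leaving out landraces 557 and 560 together were chosen after seeing the data.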

Additional observations from a re-analysis of the deposited data

How the results depend on the processing

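With 3 arrays of 1 wild accession, the count of probe sets passing against the landrace mean depends most on what is taken as error. It was 1560 in the fit of arrays, 111 (73 higher, 38 lower) with 1 mean per cultivar and 228 (138 higher, 90 lower) with cultivar as a random effect. The naming rules gave 54 passing probe sets, and genes named outside those rules are not in these counts. Of the 54, 11 passed with 1 mean per cultivar: AGAL, CHI14, KN4, CTR1, SUT4, PE1, the MT4 probe set and the 4 unnamed probe sets. RDRP, PCNA, EIN2, NP24-I, PME2.1 and vis1 did not (limma, adjusted p = 0.0678, 0.128, 0.0894, 0.401, 0.119 and 0.422). With each array left out in turn, the count over all probe sets was 888 to 1774 (521 to 975 higher, 367 to 799 lower). Of these, 769 to 1300 lay beyond the landrace means and 119 to 474 within them, the lowest each time without replicate 1 of LA1589. The number within them was 252 with array weights, 248 without landrace 560 and 249 without landraces 557 and 560. For LA1589 beyond every landrace the count was 39 to 71 over single arrays (17 to 41 higher, 22 to 33 lower). It was 90 without landrace 572 (48 higher), 91 without landraces 557 and 560 (55 higher) and 34 with the spiked controls as a covariate (14 higher), and array weights gave 17 higher. PME2.1 did not pass that test with array weights (adjusted p = 0.103) or the spiked controls (0.0704); AGAL, CHI14, PE1, the MT4 probe set and the 4 unnamed probe sets passed it in every setting run for them. Of the 54 calls beyond every landrace, the same 27 passed in all settings. The mean of the spiked controls, as deposited, ran from 9.23 to 10.00 on the LA1589 arrays and from 8.06 to 10.61 on the landrace arrays. By cultivar it was 9.62 in LA1589, 10.33 in 557, 10.23 in 572, 9.65 in 3836 and 8.24 to 9.19 in the other landraces. With this mean as a covariate 42 of the 54 named probe sets passed, and chMDH, Eix1 and SIP were among those that did not. With array weights chMDH, Cel2, BR1, Eix1, SIP, tXET-B2, AI, sus3, THM16, CYP85A1 and LEA14 missed the threshold. With the replicate number as a block, 1543 probe sets passed against the landrace mean and 55 were beyond every landrace. Of the 54 named probe sets, Cel2 (adjusted p = 0.0533) and sus3 (0.0505) then missed the threshold and the other 52 passed. Dropping single arrays of LA1589 ended the call of 22 of the 54 named probe sets, with fewer arrays in the test. No result changed sign while passing.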

Other observations

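LA1589 was compared with each landrace singly, in tests that share the LA1589 arrays. The number of probe sets passing ran from 990 against 3815 and 1040 against 572 to 1632 against 3806 and 1738 against 560. Landrace 557, with 1493, had the lowest correlation with LA1589 across probe sets (0.912) and 3815 the highest (0.939). These are correlations over genes within shared arrays. The arrays of 557 also had the lowest correlations with their own replicates, 0.917 to 0.938, so the low value is not particular to LA1589.

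Of the 509 lower probe sets beyond the landrace means, LA1589 was at background in 102 (20.04%). Of the 649 higher ones, all 9 landraces were at background in 67. Probe sets whose identifiers mark a match to several transcripts numbered 257. Of these 14.8% were higher and 12.45% lower, beside 8.41% and 6.82% of the other 9781, and the difference was not tested. They include the passing probe sets of PE1, MT4, CTR1, Man4, AI, CYP85A1 and H1 described above. Across cultivars, the share of calls in genes with several probe sets that another probe set of the gene shared varied. In landrace 560 it was 16 of 20 on the higher and 15 of 21 on the lower side, and in landrace 557 it was 6 of 25 and 0 of 13.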
